A study of Mus musculus with 3 samples.

Results

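The INK4 and RB pathway genes described here are 10 genes of mouse embryonic fibroblasts (MEFs), chosen by symbol among the 46603 genes of the count tables: the INK4 inhibitors Cdkn2a, Cdkn2b, Cdkn2c and Cdkn2d, the retinoblastoma (RB) family Rb1, Rbl1 and Rbl2, the kinases Cdk4 and Cdk6, and Ccnd1, which encodes cyclin D1. The measurements are RNA-Seq read counts in 3 KO-actin libraries made from polyadenylated RNA. These are β-actin knockout fibroblasts that carry β-actin with a nuclear localization signal (NLS). The 3 libraries form 1 condition, so levels and their spread were measured and no comparison between genotypes was made. The promoter that drives NLS-tagged β-actin, the number of clones and the passage of the cells are not given in the sources used here, nor is it stated whether the libraries came from separate cultures, so p-values between libraries measure only the spread between these samples, which may be technical.

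The pathway decides whether a cell passes from G1 into S phase. D-type cyclins activate the kinases CDK4 and CDK6, these phosphorylate the RB family proteins pRB, p107 and p130, and phosphorylated RB proteins release E2F transcription factors that drive the genes of DNA replication. INK4 proteins bind CDK4 and CDK6 and hold them away from cyclin D. Cdkn2a is known in cultured fibroblasts for rising as the cells age in culture, and it encodes a second, unrelated protein, p19ARF, which restrains MDM2 and so stabilizes p53. Loss of this locus or of p53 is a usual route by which cultured MEFs escape arrest.

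A count for Cdkn2a holds RNA of both products. The gene lies on chromosome 4, minus strand, from 89274471 to 89294653 (GRCm38). In the GENCODE M21 annotation the p19ARF transcript starts with its own first exon at 89294334 to 89294653, the p16INK4a transcript starts 12461 bp downstream with another first exon at 89281986 to 89282192, and both continue into the same exon 2 at 89276645 to 89276985. Exon 2 is read in a different frame in each, which is why the proteins are unrelated. The sequences across the first junction are shown because they are where the transcripts part: capitals mark the 30 bases from the end of each first exon and lower case the first 30 bases of the shared exon 2.
p16INK4a: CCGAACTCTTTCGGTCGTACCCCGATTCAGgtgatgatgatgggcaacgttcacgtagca
p19ARF: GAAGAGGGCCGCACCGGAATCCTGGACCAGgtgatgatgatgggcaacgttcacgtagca
The lower-case letters are identical. Of the 1172 exonic bases of the gene, 575 (49.1%) belonged to both transcripts, 277 (23.6%) only to p16INK4a and 320 (27.3%) only to p19ARF, so gene counts do not say how much of the Cdkn2a RNA encodes either protein. The neighbouring Cdkn2b, which encodes p15INK4b, ends 11646 bp before the p19ARF start on the same strand and shares no exonic base with Cdkn2a.

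**Figure D1:**
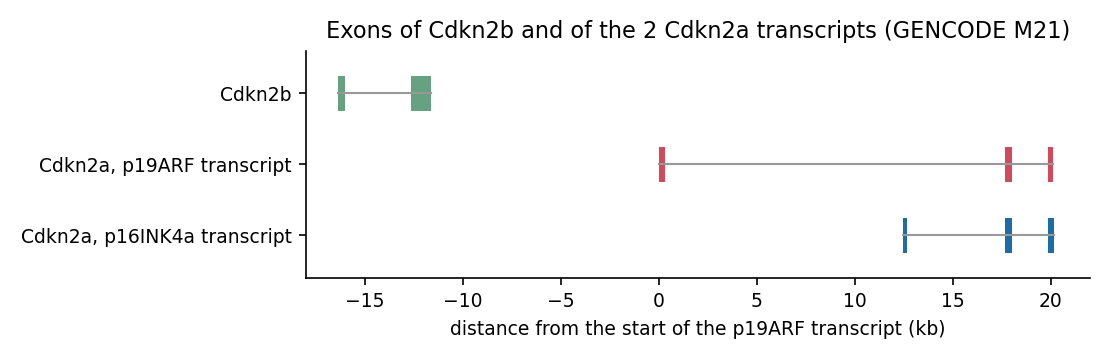
Exons (boxes) and introns (lines) of Cdkn2b and of the p19ARF and p16INK4a transcripts of Cdkn2a, drawn against the distance in kb from the start of the p19ARF transcript, with transcription running left to right. The 2 Cdkn2a transcripts differ in their first exon and share exon 2 and most of exon 3.

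The transcripts also have different promoters, and bases before each start are shown with those before Rbl1, since the p19ARF and Rbl1 windows were the ones among the members that held a match to an E2F site. The sequences are RefSeq's (GRCm38.p6), which held 8 of the 10 members in 10 windows of 250 bases before a start, with Rb1 and Ccnd1 not among them. The RefSeq start of p19ARF, at 89294619, lies inside the GENCODE first exon given above, so the last 34 bases of its window belong to that exon and are not printed. The strings searched on both strands were TTTCCCGC, TTTCGCGC, TTTGCCGC and TTTGGCGC. They are in capitals where found.
p19ARF start, chr4:89294654-89294869, minus strand: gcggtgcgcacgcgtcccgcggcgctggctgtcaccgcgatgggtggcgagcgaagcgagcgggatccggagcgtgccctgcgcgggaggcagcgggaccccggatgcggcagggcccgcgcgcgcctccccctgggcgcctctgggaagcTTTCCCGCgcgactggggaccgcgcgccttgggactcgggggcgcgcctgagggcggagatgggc
p16INK4a start, chr4:89282193-89282442, minus strand: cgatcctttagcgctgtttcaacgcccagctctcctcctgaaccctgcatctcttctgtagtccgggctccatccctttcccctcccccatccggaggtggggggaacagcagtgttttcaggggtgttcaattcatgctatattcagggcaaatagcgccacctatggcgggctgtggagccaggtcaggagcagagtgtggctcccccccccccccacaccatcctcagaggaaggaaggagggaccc
Rbl1 start, chr2:157204535-157204784, minus strand: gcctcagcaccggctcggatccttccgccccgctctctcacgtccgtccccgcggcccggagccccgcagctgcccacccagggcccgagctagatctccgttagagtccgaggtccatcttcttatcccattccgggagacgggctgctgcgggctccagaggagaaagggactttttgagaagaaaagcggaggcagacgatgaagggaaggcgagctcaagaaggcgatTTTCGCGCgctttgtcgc
The p19ARF window held TTTCCCGC from 99 to 92 bases before the RefSeq start, which is 65 to 58 bases before the GENCODE start, and the Rbl1 window held TTTCGCGC from 18 to 11 bases before its start. Such a string was present in 611 of 32851 RefSeq promoter windows of this length (1.86%). The GC box GGGCGG, searched on both strands, occurred 2 times in the p19ARF window, 1 of them within the exon bases not printed, and was not found at the p16INK4a start, against 32.7% of all windows that held at least 1. These windows had a GC content of 78.4% and 60.0%. The matches are a description of the letters and no factor's binding was measured.

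The libraries held 49932446, 49587453 and 44383636 counts. Levels are CPM (counts per 1000000 reads) on library sizes scaled by TMM, whose factors lay between 0.994 and 1.01. Levels of different genes are compared as CPM per kilobase of exonic length, and with other lengths or no length where this is said. A library in which a gene has no count allows up to 3 counts, or 0.0601 to 0.0671 CPM, for counting error only. Replicate 2 stood apart: a chi-square per degree of freedom over genes was 11.2 against replicate 1 and 10.8 against replicate 3, and 3.78 between replicates 1 and 3. Of 10 fibroblast markers 9 were above the floor, led by Vim at 962, Col1a1 at 618 and Fn1 at 306 CPM per kilobase, with a summed level of 11891 to 12878 CPM. However, Lum had 0 counts, Dcn had 8, 8 and 6 counts, and Pdgfra and Thy1 were at 0.496 and 0.279 CPM per kilobase. The median of the 10 was 12.2 CPM per kilobase, and 7 of them reached 1 CPM in every library. The list also holds Col1a2, Pdgfrb and S100a4, whose levels are not given here. Markers of other cells were above the floor for 3 of 6 epithelial, 2 of 6 blood, 6 of 6 neuronal and 2 of 5 endothelial genes, and their summed level ranged from 80.2 to 88.9, 10.9 to 12.9, 57.2 to 57.3 and 2.01 to 2.56 CPM. The highest of them were Krt18 and Krt19 at 26.4 and 23.8, Cd74 at 6.70, Tubb3 at 5.86 and Kdr at 0.231 CPM per kilobase, with Epcam, Ptprc and Cdh5 each at 0 counts in 2 libraries and 1 count in the other. Actb, the targeted gene, stood at 405 ± 9.68 CPM per kilobase (SD, n = 3), and gene counts do not separate NLS-tagged RNA from RNA of the disrupted locus. In bulk RNA, fewer cells that express a gene and less RNA per cell cannot be told apart.

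Per kilobase of exons Cdkn2a was among the most abundant protein-coding RNAs of these fibroblasts. Its counts were 19064, 23361 and 17882, which is 382, 474 and 400.2 CPM in replicates 1, 2 and 3. Replicate 2 was the highest and the other libraries lay close together. Per length the mean was 357 ± 41.6 CPM per kilobase (SD, n = 3), rank 74 of the 12087 protein-coding genes tested, with 99.4% of them lower. The rank with another length or with no length was not computed. The nearest protein-coding genes in level were Rpsa, a ribosomal protein gene, and Anxa5, which encodes annexin A5, both at 366 CPM per kilobase, and below it Rpl13a at 352 and Hint1 at 351. No exonic base of Cdkn2a overlapped another gene. No 50-base window of its longest transcript, that of p19ARF, recurred in transcripts of another gene. The 277 bases found only in p16INK4a were not searched.

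Cdkn2b, the other INK4 gene of the locus and known as a target of TGF-beta signalling, had 2986, 3674 and 2925 counts, or 59.8, 74.6 and 65.5 CPM. Its mean of 47.9 ± 5.35 CPM per kilobase (SD, n = 3) was above that of 90.8% of protein-coding genes. Cdkn2c, which encodes p18INK4c and lies elsewhere on chromosome 4, at 109660876 to 109667189, measured 107, 126 and 115 CPM, a mean of 43.2 ± 3.63 CPM per kilobase (SD, n = 3). Cdkn2d encodes p19INK4d, which is a different protein from p19ARF, and lies on chromosome 9 at 21288410 to 21291407. It was the lowest of the 4, at 25.9, 33.2 and 29.2 CPM and 18.7 ± 2.34 CPM per kilobase (SD, n = 3). In each of the 4 genes replicate 2 was the highest library and replicate 1 the lowest. As with Cdkn2a, none of these genes shared an exonic base, or a 50-base window of its longest protein-coding transcript, with another gene.

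Set against its paralogs within each library, Cdkn2a was 7.45-fold higher per kilobase than Cdkn2b (7.25 to 7.57 over the libraries), 8.26-fold higher than Cdkn2c (8.01 to 8.60, and 3.60-fold with no length) and 19.1-fold higher than Cdkn2d (18.4 to 19.8). The direction held in 3 of 3 libraries for each ratio, and the exact sign-flip permutation test over the libraries, two-sided, gave p = 0.25, the smallest that 3 libraries allow. These ratios varied less between libraries than the genes themselves: the highest library exceeded the lowest by 1.24-fold for Cdkn2a and by 1.25-fold for Cdkn2b. Cdkn2a held 76.5% ± 0.485 (SD, n = 3) of the summed INK4 level of 467 ± 52.7 CPM per kilobase, Cdkn2b 10.3%, Cdkn2c 9.27% and Cdkn2d 4.0%. The share of Cdkn2a was 66.4% with no length correction, which raises the longer Cdkn2c to 18.4%, and 80.2% with the longest transcript of each gene as its length.

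**Figure D2:**
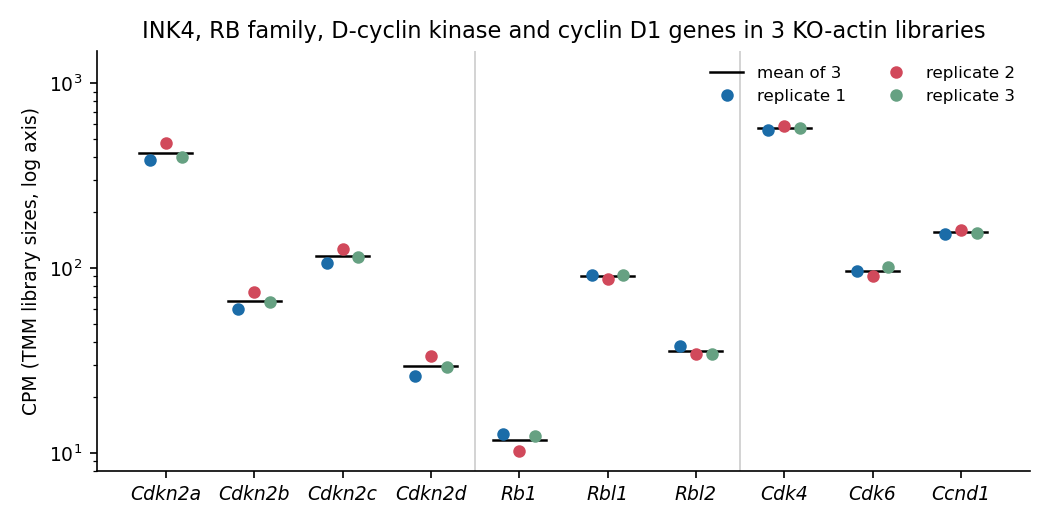
CPM on TMM library sizes (log axis) of the 10 genes in the 3 KO-actin libraries, each point 1 library and each bar the mean of 3. Replicate 2 is the highest library in the 4 INK4 genes, Cdk4 and Ccnd1 and the lowest in Rb1, Rbl1, Rbl2 and Cdk6, and Rb1 is the lowest gene at 10.2 to 12.6 CPM.

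The kinases that INK4 proteins bind were present at very different RNA levels. Cdk4, on chromosome 10 at 127063534 to 127067920, had 28012, 28929 and 25524 counts, or 561, 587 and 571 CPM. That is 176 ± 4.0 CPM per kilobase (SD, n = 3), above 98.4% of protein-coding genes, and the highest library exceeded the lowest by only 1.05-fold. Cdk6, on chromosome 5 at 3341485 to 3531008, had 96.0, 90.3 and 101 CPM and 6.85 ± 0.382 CPM per kilobase (SD, n = 3), near the middle of protein-coding genes (48.8% lower). Cdk4 exceeded Cdk6 by 25.8-fold per kilobase (24.4 to 28.0, 3 of 3 libraries, exact sign-flip permutation p = 0.25) and held 96.3% ± 0.257 (SD, n = 3) of their summed level. The size of this ratio and the place of Cdk6 among protein-coding genes depend on the length used. The exons of Cdk6 cover 13989 bp, while its protein-coding transcripts have a median length of 697 bp. With that median length Cdk6 stood at 137 CPM per kilobase. The ratio was 5.99-fold with no length and 3.92-fold with the median transcript, with Cdk4 higher in each.

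Cyclin D1, the partner of these kinases, is encoded by Ccnd1 on chromosome 7 at 144929931 to 144939925. It measured 153, 160.2 and 155 CPM, a mean of 33.1 ± 0.805 CPM per kilobase (SD, n = 3), and 85.5% of protein-coding genes were lower. Among the D cyclins Ccnd1 held 60.4% ± 1.24 (SD, n = 3) of the summed level, Ccnd3 33.7% and Ccnd2 5.93%. This lead over Ccnd3 was lost with other lengths, since the share of Ccnd1 was 47.1% with the longest transcript (Ccnd3 47.5%), 16.4% with the median protein-coding transcript (Ccnd3 71.5%) and 44.7% with no length (Ccnd3 46.5%). The ratio of Cdk4 to Ccnd1 was steady between libraries, at 5.31-fold to 5.34-fold per kilobase, but it was 12.9-fold with the median protein-coding transcript and 3.67-fold with no length.

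The RB family was the lowest group. Rb1, the founding tumour suppressor of the family, lies on chromosome 14 at 73183673 to 73325822 and had 627, 505 and 548 counts, or 12.6, 10.2 and 12.3 CPM. Its mean of 1.94 ± 0.209 CPM per kilobase (SD, n = 3) was rank 9225 of the protein-coding genes tested, with 23.7% lower, and replicate 2 was below both other libraries. Rbl1, which encodes p107, is itself known as an E2F target, and its promoter window with an E2F match is shown above. It lies on chromosome 2 at 157145893 to 157204534 and measured 92.1, 87.1 and 91.8 CPM, or 15.1 ± 0.464 CPM per kilobase (SD, n = 3). Rbl2, which encodes p130, the family member best known from resting cells, lies on chromosome 8 at 91070057 to 91123844 and measured 37.8, 34.1 and 34.4 CPM, or 4.69 ± 0.277 CPM per kilobase (SD, n = 3).

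Within the family Rbl1 was 7.78-fold higher than Rb1 per kilobase (7.36 to 8.53), Rbl2 was 2.42-fold higher than Rb1 (2.23 to 2.65) and Rbl1 was 3.22-fold higher than Rbl2 (3.07 to 3.37). Each order held in 3 of 3 libraries (exact sign-flip permutation p = 0.25 for each). Rbl1 held 69.5% of the summed level of 21.7 ± 0.871 CPM per kilobase, Rbl2 21.6% and Rb1 8.94% ± 0.632 (SD, n = 3). The lengths of these genes are alike, and the share of Rb1 stayed between 8.49% and 8.94% over the length measures tried.

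**Figure D3:**
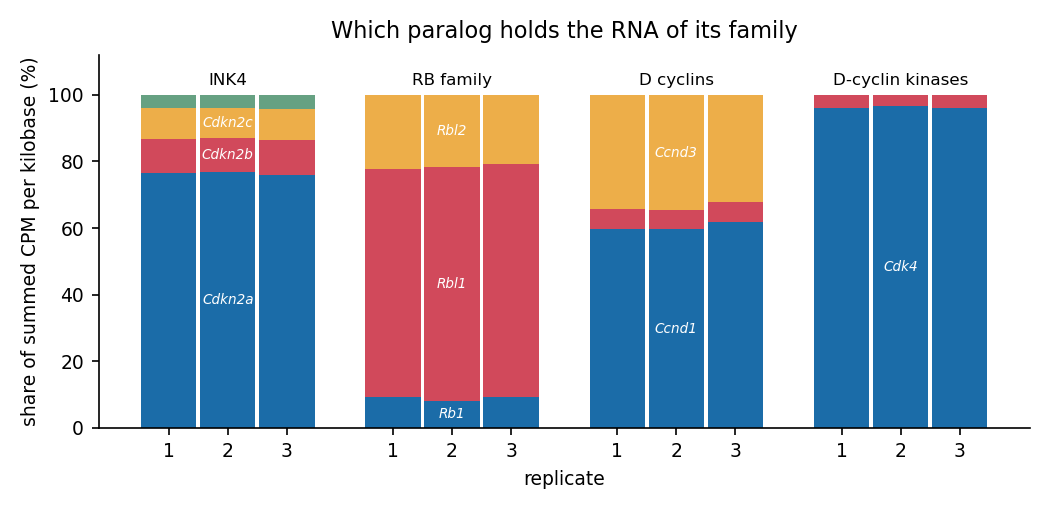
Share of the summed CPM per kilobase (%) held by each gene in the INK4 family (Cdkn2d in green at the top), the RB family, the D cyclins (Ccnd2 in red) and the D-cyclin kinases (Cdk6 in red), with 1 bar for each of the 3 replicates. Cdkn2a, Rbl1, Ccnd1 and Cdk4 hold the most of their families, and the bars of a family hardly differ between replicates.

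Over all 10 genes the order per kilobase was Cdkn2a, Cdk4, Cdkn2b, Cdkn2c, Ccnd1, Cdkn2d, Rbl1, Cdk6, Rbl2 and Rb1, and every library gave it. The 3 libraries of a gene did not overlap those of the next in 8 of the 9 neighbouring pairs. The exception was Cdkn2b over Cdkn2c (1.11-fold), whose ranges of 43.0 to 53.6 and 39.9 to 47.1 CPM per kilobase overlapped. The ranges alone do not separate these genes. Cdkn2b was higher within each library, but the ratio of this pair was not tested. This pair turned over with other lengths, Cdkn2c being at 64.9 and Cdkn2b at 47.9 CPM per kilobase with the median protein-coding transcript, and at 116 and 66.6 CPM with no length. Other places changed as well. In mean CPM with no length the order was Cdk4, Cdkn2a, Ccnd1, Cdkn2c, Cdk6, Rbl1, Cdkn2b, Rbl2, Cdkn2d and Rb1. The 3 libraries share the same lengths, so their agreement does not bear on the choice of length. Cdkn2a and Rb1, the ends of the order per kilobase, differed by 184-fold (156 to 237), or 35.8-fold with no length. The 4 INK4 genes summed to 21.4-fold the level of the 3 RB family genes (18.9 to 25.4), or 4.57-fold with no length.

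The place of Cdkn2a above Cdk4 rests on the length given to the genes. Over all exons Cdkn2a was 2.02-fold higher (1.89 to 2.24, 3 of 3 libraries, exact sign-flip permutation p = 0.25), and with the longest transcript 1.67-fold higher. With the median protein-coding transcript, 1066 bp for Cdk4, the ratio turned to 0.888, and with no length correction to 0.727. The sum of the 4 INK4 genes over Cdk4 and Cdk6 behaved alike, at 2.54 over all exons (2.37 to 2.81) and 0.908 and 0.939 under the same alternatives. The annotated exons of Cdk4 were also less its own, since 19.7% of them overlapped Tspan31 on the opposite strand. Of the 50-base windows of its longest protein-coding transcript, searched on both strands, 29.5% recurred in transcripts of other genes. Tspan31 shared the most of them, so these measures overlap. For Ccnd1 the share of such windows was 27.2%, with LTO1, and for Rbl2 11.3%, with Aktip foremost. Whether counting used the strand is not given in the sources used here, so reads of such stretches cannot be assigned. Opposite-strand genes overlapped 14.9% of Rb1 (Rcbtb2 and Lpar6), 20.97% of Rbl2 (Aktip and Gm45464), 23.4% of Ccnd1 (LTO1) and 2.63% of Cdk6 (Gm17590), and none of Rbl1.

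**Figure D4:**
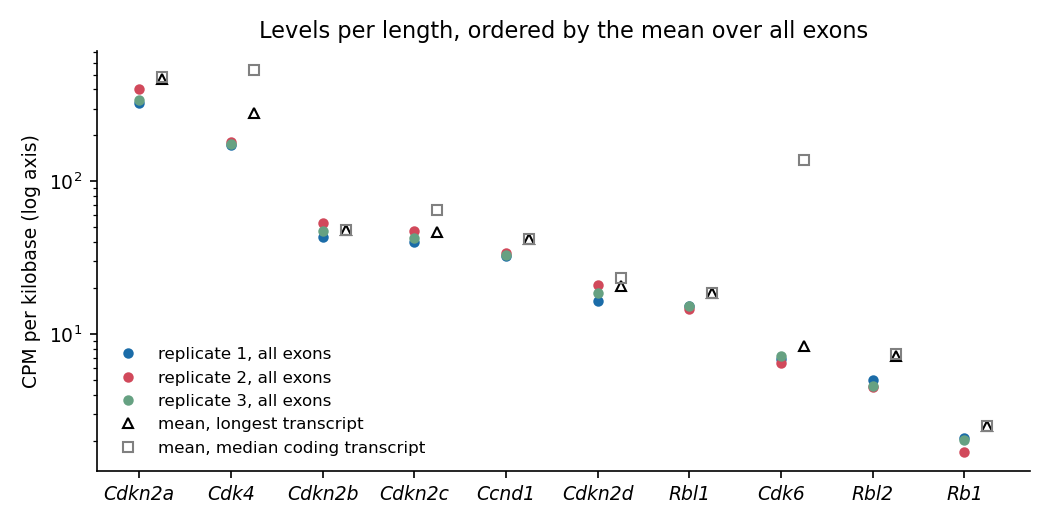
CPM per kilobase (log axis) of the 10 genes, ordered by their mean over all exons, with the 3 libraries as filled points and the means under 2 other lengths as open marks. The triangles (longest transcript) keep Cdkn2a above Cdk4, the squares (median protein-coding transcript) put Cdk4 above Cdkn2a and move Cdk6 from 6.85 to 137 CPM per kilobase.

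All members varied between the libraries of this single condition. Each gene was tested for variation beyond counting error by a chi-square over the 3 libraries, adjusted by Benjamini-Hochberg over the 13814 genes that reached 10 counts in all 3. Among all genes 6063 were called at 0.05, which is 43.9%, and among the members 10 of 10. In 6 members, the 4 INK4 genes, Cdk4 and Ccnd1, replicate 2 was above both others, and 20.3% of all genes tested were called in that direction. In the other 4, Rb1, Rbl1, Rbl2 and Cdk6, replicate 2 was below both others, and 17.4% of all genes tested were called in that direction. For Rbl2 replicates 2 and 3 were nearly level, at 34.1 and 34.4 CPM, and replicate 1 was the library that stood apart, at 37.8 CPM. These tests compare libraries and not conditions, and genes with many counts pass them at small differences.

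The differences were largest in the INK4 genes and Rb1. On the log2 scale replicate 2 differed from the mean of replicates 1 and 3 by 0.28 for Cdkn2a (adjusted p = 5.95e-119), 0.25 for Cdkn2b (5.20e-17), 0.19 for Cdkn2c (8.85e-17) and 0.27 for Cdkn2d (1.64e-09). The difference was -0.28 for Rb1 (adjusted p = 0.00456) and -0.12 for Cdk6 (5.91e-06). The remaining members differed by less, at -0.078 for Rbl1 (adjusted p = 0.0374), -0.081 for Rbl2 (0.00767), 0.052 for Cdk4 (3.60e-06) and 0.058 for Ccnd1 (0.0274). The calls of Rbl1 and Ccnd1 were near the threshold: that of Rbl1 was lost when genes with at least 1 count in any library were tested (adjusted p = 0.0573), that of Ccnd1 when total counts set the library sizes (0.0738), and both without replicate 1 (0.0826 and 0.0619), as was that of Rbl2 (0.956). The SD of log2 CPM was 0.16 for Cdkn2a and Rb1, 0.18 for Cdkn2d and 0.033 for Cdk4, against a median of 0.080 over all tested genes.

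The GC content of the genes moved with this split. The exons of the INK4 genes had a GC content of 55.9% to 59.5%, those of Cdk4 and Ccnd1 52.0% and 51.7%, and those of Cdk6 and the RB family 40.6% to 45.9%. Over all genes the median difference of replicate 2 on the log2 scale went from -0.13 to 0.14 between the lowest and the highest of 10 equal groups of genes by GC content. With library sizes set within 50 bins of GC content, 29.8% of genes and 6 of the 10 members were called: the 4 INK4 genes, Rbl2 and Cdk6. In that setting the differences of the INK4 genes were 0.14, 0.15, 0.088 and 0.18 (adjusted p = 1.87e-35, 2.05e-08, 1.40e-05 and 2.68e-05 for Cdkn2a, Cdkn2b, Cdkn2c and Cdkn2d), and that of Rb1 was -0.15 (0.232). Cdk4 and Ccnd1 stood at 0.010 and 0.011 (0.0686 and 0.790), and Rbl1 turned to 0.015 (0.892). The part of GC content in the INK4 differences was not tested further.

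**Figure D5:**
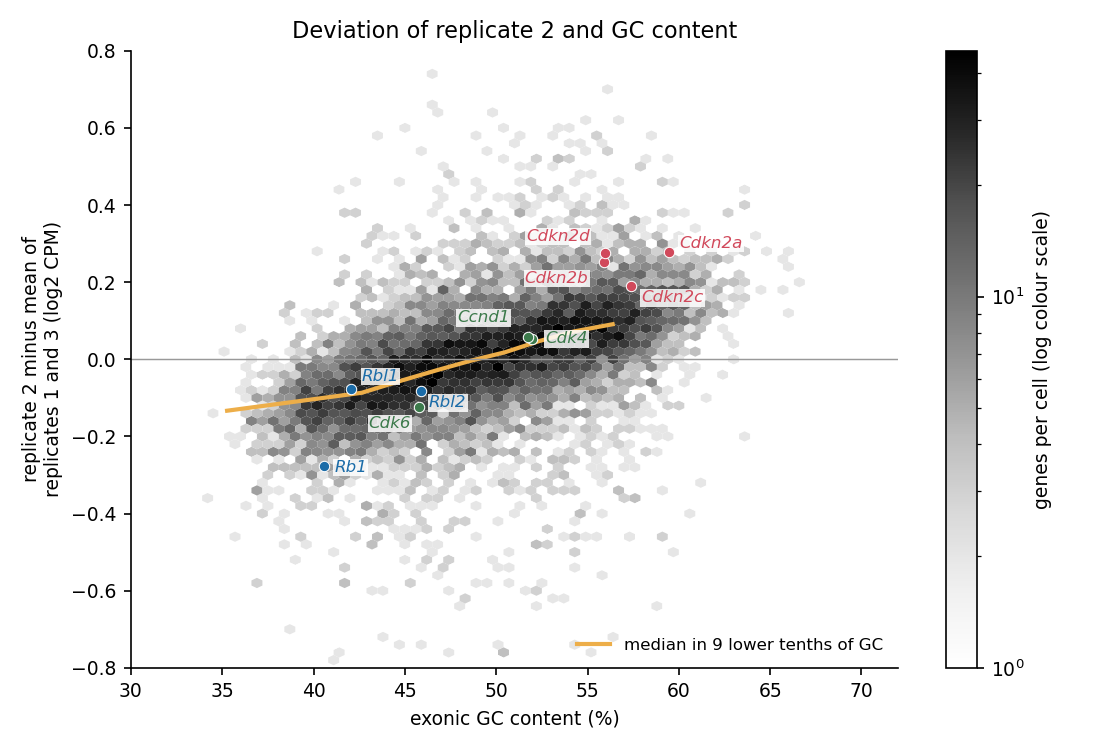
Difference of replicate 2 from the mean of replicates 1 and 3 (log2 CPM) against exonic GC content (%), with all tested genes as grey cells (log colour scale, 214 genes beyond 0.8 not drawn) and the members as points: INK4 in red, RB family in blue, kinases and Ccnd1 in green. The orange line joins the medians of 9 of the 10 equal groups of genes by GC content, all but the highest; Cdkn2b and Cdkn2d lie above it, Rb1 lies below it, and Cdkn2c and Cdkn2a lie beyond its end.

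Replicates 1 and 3, the closer pair, also differed in the INK4 genes. Between them 12.5% of 14037 genes were called and 5 of the 10 members: Cdkn2a (adjusted p = 0.000290), Cdkn2b (0.00854), Cdkn2c (0.00906), Cdkn2d (0.0255) and Rbl2 (0.0434). The 4 INK4 genes were higher in replicate 3, by 0.067, 0.13, 0.097 and 0.17 on the log2 scale, whereas the difference for Rbl2 was -0.14. The same 5 were called when GC bins were used for this pair, an alternative chosen after seeing the data, with adjusted p = 1.06e-06, 0.00195, 0.00837, 0.0110 and 0.0429. Rb1, Rbl1, Cdk4, Cdk6 and Ccnd1 were not called between replicates 1 and 3 (adjusted p = 0.843, 0.952, 0.173, 0.0887 and 0.634). What sets the INK4 level of these libraries apart was not tested.

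The rest of the pathway was counted over 70 genes in 13 lists. Of these 66 were above 3 counts in every library. The median of all 70, the other 4 included, was 15.6 CPM per kilobase. Over the 12087 protein-coding genes tested, which all reached 10 counts in every library, it was 7.19, so the 2 sets were filtered differently. Variation between libraries was called for 45 of the 66, beside 43.9% of all genes. The other family of CDK inhibitors was well below Cdkn2a: Cdkn1a, which encodes the p53 target p21, stood at 16.03 ± 1.08 and Cdkn1b, which encodes p27, at 13.4 ± 0.678 CPM per kilobase (SD, n = 3), while Cdkn1c had 0, 0 and 2 counts.

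Downstream, all 16 E2F target genes were above the floor, with a median of 62.8 CPM per kilobase, from Cdc25a, a phosphatase that activates CDKs, at 7.35 to Pcna, the sliding clamp of DNA replication, at 175. Library variation was called for 13 of the 16, with replicate 2 above both others in 6 and below both others in 6, beside 43.9% of all genes called and 20.3% and 17.4% in these directions. Ccna2, the S-phase cyclin A2, was the highest of 6 S-phase cyclins and kinases at 69.8 ± 2.69 CPM per kilobase (SD, n = 3), and its germ line relative Ccna1 had 0 counts in every library. Among the E2F genes E2f1 led the 3 activators at 27.1 and E2f2 was lowest at 2.17, while E2f4 led the 5 repressors at 56.1 and E2f6 was lowest at 4.11 CPM per kilobase. Their dimer partner Tfdp1 stood at 71.7 and Tfdp2 at 2.78, and neither was called between libraries.

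The partners of the RB proteins and of the kinases were all measured. The proteins p107 and p130 join the DREAM complex to repress cell cycle genes. In the wider list of DREAM and MuvB partners, which also holds Mybl2 and Foxm1, 7 of 7 genes were above the floor. They ranged from Lin52 at 2.56 to Rbbp4 at 38.4 CPM per kilobase. The CDK-activating kinase had 3 of 3, from Mnat1 at 6.60 to Cdk7 at 15.3. Phosphatases and chromatin recruiters of RB had 6 of 6, from Arid4a at 3.62 to Ppp1ca, a catalytic subunit of protein phosphatase 1, at 282 CPM per kilobase. Ppp1ca was the pathway gene next below Cdkn2a in level, followed by Cdk4 and Pcna.

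On the p19ARF side of the locus 4 of 4 genes were above the floor. Npm1, a nucleolar protein that binds p19ARF, was the pathway gene next above Cdkn2a at 485 ± 33.0 CPM per kilobase (SD, n = 3), Trp53 stood at 52.2, Mdm2 at 15.8 and Mdm4 was lowest at 2.87. All 4 were called between libraries, with replicate 2 above both others in 1 and below both others in 3, beside the same shares of 43.9%, 20.3% and 17.4% over all genes. Of 10 regulators of the locus 9 were above the floor, from Tbx2, a T-box repressor of p19ARF, at 1.43 to Id1 at 110 CPM per kilobase, and Tbx3 had 3, 0 and 0 counts. The Polycomb genes Bmi1 and Ezh2, whose products silence the locus, stood at 17.9 and 18.4 CPM per kilobase and Cbx7 at 4.17. Around the locus, Mtap, the gene beside Cdkn2a, was at 75.05 ± 2.31 CPM per kilobase (SD, n = 3), whereas Dmrta1 had 2, 0 and 0 counts and Elavl2 was at 0.298.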

How the data were processed

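RNA-Seq counts of 3 KO-actin MEF libraries were analysed. For each library the authors deposited a table of raw read counts by Ensembl gene identifier. Per the submitters' processing notes, Trimmomatic, FastQC, HISAT2 and HTSeq were used with mm10 and GRCm38; the annotation and the strand setting are not given in the sources used here. Symbols were matched for 46005 of 46603 genes, and coordinates, lengths and GC content came from GENCODE M21 on GRCm38. Library sizes were scaled by TMM (edgeR 4.0.16, R 4.3.3), with DESeq2 1.42.0 size factors, upper quartiles and total counts as alternatives. Length was the union of exons, or the longest or the median protein-coding transcript. Ratios were taken within libraries. For variation a chi-square (2 degrees of freedom) was computed on the 13814 genes that reached 10 counts in all libraries. For the GC bins it was computed on the 13770 of them with a GC content. The chi-square was also run on simulated counts that held only counting error and set changes in replicate 2. That simulation lacks the wider differences between the real libraries, so it does not bear on their calls. Python 3.11.15, numpy 2.4.6, pandas 2.3.3, scipy 1.17.1 and matplotlib 3.10.9 were used. The floor was fixed at 3 counts, which at totals of 44383636 to 49932446 counts was 0.0601 to 0.0671 CPM.

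The members and lists were chosen with earlier results of these data known. All members were named, and of each other list the highest, the lowest and any gene over 10-fold from its list; Cdkn1b, Trp53, Mdm2, Bmi1, Ezh2, Cbx7 and Tbx2 were named after their values were seen.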

Additional observations from a re-analysis of the deposited data

How the results depend on the processing

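Another scaling moved the mean of a member by at most 0.0368%. Length changed more. Cdkn2a over Cdk4 was 0.888 with the median protein-coding transcript and 0.727 with no length, and the 4 INK4 genes over Cdk4 and Cdk6 were 0.908 and 0.939. With the longest transcript, the median transcript and no length, the share of Cdkn2a was 80.2%, 77.9% and 66.4%, that of Cdk4 97.1%, 79.6% and 85.7% and that of Ccnd1 47.1%, 16.4% and 44.7%. Within GC bins 6 members were called and the difference of replicate 2 for Rbl1 was 0.015 on the log2 scale. Leaving out 1 replicate gave 5 to 10 members and 1748 to 4786 genes called, the lowest without replicate 2. Without replicate 2 and within GC bins, chosen after seeing the data, 5 members and 1699 genes were called. The cause was not tested. Among values of single genes over all alternatives, 141 kept their direction and call, 19 lost a call, 19 moved beyond the spread of the libraries and 1 reversed. Among the ratios, shares and counts, 114 kept their result, 14 moved and 4 reversed.

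No paired analysis between groups was possible because the 3 libraries belong to 1 group, and only the ratios between genes were paired by library. Depth limits genes near the floor, such as Tbx3 and Cdkn1c, and no member is near it.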
